A study of Mus musculus with 19 samples.

Results

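Nuclear genes for the subunits of oxidative phosphorylation were followed across 19 RNA sequencing libraries of the cochlea, the spiral organ of hearing in the mouse ear. They were chosen by symbol, as every gene whose name follows the pattern of a subunit of complex I (Ndufa, Ndufb, Ndufc, Ndufs and Ndufv genes), complex II (Sdha to Sdhd), complex III (Uqcr genes), complex IV (numbered Cox genes with a letter) or complex V (Atp5 genes). The pattern matched 80 of 18639 genes. By complex these were 35 genes of complex I, 4 of complex II, 8 of complex III, 17 of complex IV and 16 of complex V. Ndufa4 and Ndufa4l2 were counted with complex IV, where the Ndufa4 protein is now placed. The pattern leaves out Cyc1, Cycs, Cox4i1 and Ndufab1, which were counted in a list of other nuclear respiratory chain genes, and the subunits encoded by mitochondrial DNA were not analysed here.

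Oxidative phosphorylation takes place in the inner membrane of mitochondria. Complexes I and II pass electrons from NADH and succinate to ubiquinone, complex III passes them on to cytochrome c, and complex IV hands them to oxygen. Complexes I, III and IV pump protons as they do so, and complex V, the ATP synthase, uses the proton gradient to make ATP. Neurons, hair cells and the stria vascularis of the cochlear lateral wall are tissues with a high demand for ATP, and macrophages shift between glycolysis and oxidative phosphorylation with their state.

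All mice were heterozygous CX3CR1 GFP/+ knock-in animals, in which green fluorescent protein (GFP) stands in for 1 copy of a chemokine receptor gene of macrophages. Each isolate came from 1 mouse, and cells were separated by flow sorting into GFP-positive cells, called macrophages, and GFP-negative cells, called nonmacrophages. From whole cochleae of old mice, aged 12 to 14 months, there were 4 macrophage and 4 nonmacrophage libraries, and from those of young mice, aged 1.5 months, 2 macrophage and 4 nonmacrophage libraries. The auditory nerve of young mice gave 1 macrophage and 1 nonmacrophage library, as did their lateral wall, and 1 young whole cochlea was left unsorted. The sort collects any cell with GFP, so a macrophage library is the GFP-positive fraction and not a purified cell line. In such bulk samples, fewer cells of a type and less RNA per cell cannot be told apart.

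The libraries held 20.6 M to 71.6 M reads in genes, and 77 to 80 members had reads in each. All values below are normalized reads, which are read counts divided by a factor for each library, and levels can be compared between libraries but not between genes unless a value per kilobase is given. The sort was visible in 9 macrophage marker genes, whose summed level was 173955 to 286479 in old macrophages, 645384 to 872710 in young macrophages, 816 to 2170 in old nonmacrophages and 454 to 1666 in young nonmacrophages. Members have short transcripts, with a median of 760.5 bases against 2556 bases for all genes, and 52 of the 80 are shorter than 1000 bases against 11.6% of all genes. The balance of short and long transcripts differed between libraries and is therefore given beside the results. Each gene's log2 level was first taken relative to its mean over the old libraries, which are thus the reference. The excess is a median of these values minus another. The first is over 1206 other genes with transcripts under 1000 bases, the second over 4115 other genes of at least 4000 bases. This excess was 4.13 and 1.05 in young macrophage replicates 9 and 15. It was 1.96, 0.52, 1.39 and -0.13 in young nonmacrophage replicates 2, 5, 6 and 14, between -0.06 and 0.47 in old macrophages and between -0.35 and -0.18 in old nonmacrophages.

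**Figure D1:**
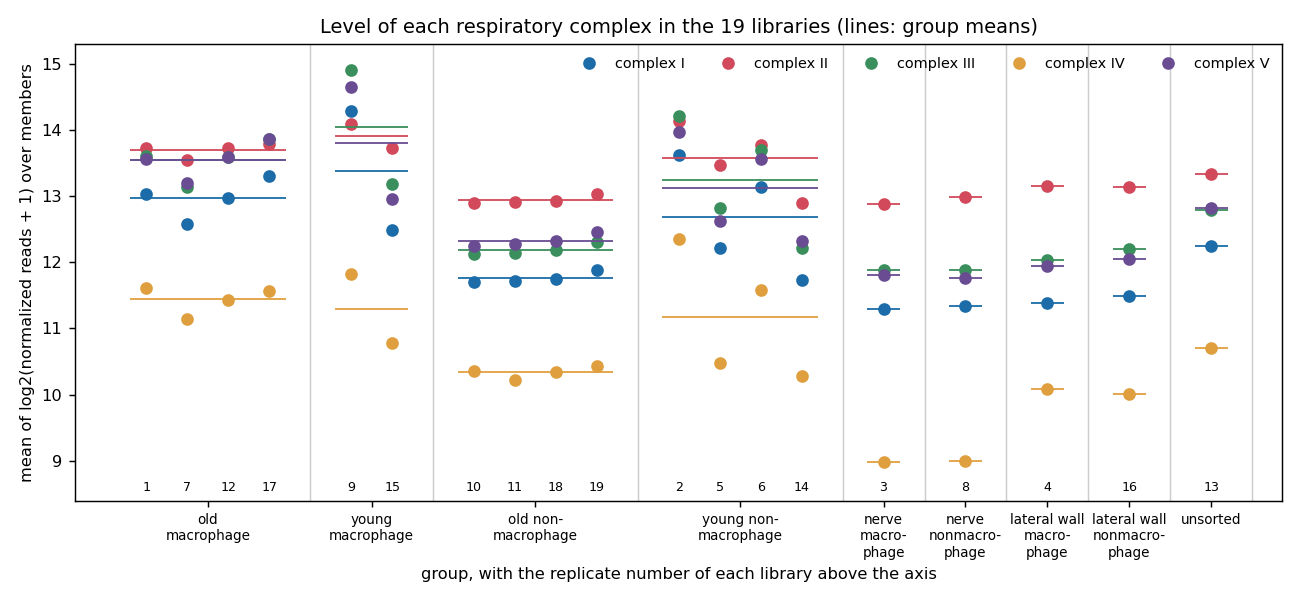
Mean of log2(normalized reads + 1) over the members of each complex, 1 point per library and complex, with lines at the group means and replicate numbers above the axis. The 4 old macrophage libraries lie above the 4 old nonmacrophage libraries for every complex, while young macrophage replicates 9 and 15 and the young nonmacrophage libraries are spread over a wide range.

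The first comparison asked which members differ between macrophages and nonmacrophages of the old cochlea, the 2 groups with 4 libraries each and little spread. Subunits of all 5 complexes were higher in the old macrophage libraries. Limma, fitted to all 14 sorted whole-cochlea libraries and all 18441 genes tested, called 31 of 80 members higher and 1 lower at a Benjamini-Hochberg adjusted p of 0.05. Over all genes tested 9.25% were called higher and 9.36% lower. The median log2 difference was 1.28 over the members and -0.19 over all genes, and 77 of 80 members had a positive difference. In 72 members every old macrophage library lay above every old nonmacrophage library, and in 2 members every one lay below, against 23.3% and 30% of all genes.

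By complex, 14 of 35 members of complex I, 2 of 4 of complex II, 4 of 8 of complex III, 4 of 17 of complex IV and 7 of 16 of complex V were called higher. The median log2 difference was 1.21 in complex I, 0.74 in complex II, 1.49 in complex III, 1.27 in complex IV and 1.32 in complex V, and differences between complexes were not tested. The mean level of complex I was 12.97 ± 0.30 on the log2 scale in old macrophages, against 11.77 ± 0.08 in old nonmacrophages (SD, n = 4 each). That of complex II was 13.70 ± 0.10 in old macrophages and 12.94 ± 0.06 in old nonmacrophages, and that of complex III 13.55 ± 0.31 in old macrophages and 12.19 ± 0.08 in old nonmacrophages. Complex IV stood at 11.44 ± 0.21 in old macrophages and 10.34 ± 0.08 in old nonmacrophages, and complex V at 13.55 ± 0.28 in old macrophages and 12.33 ± 0.09 in old nonmacrophages.

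**Figure D2:**
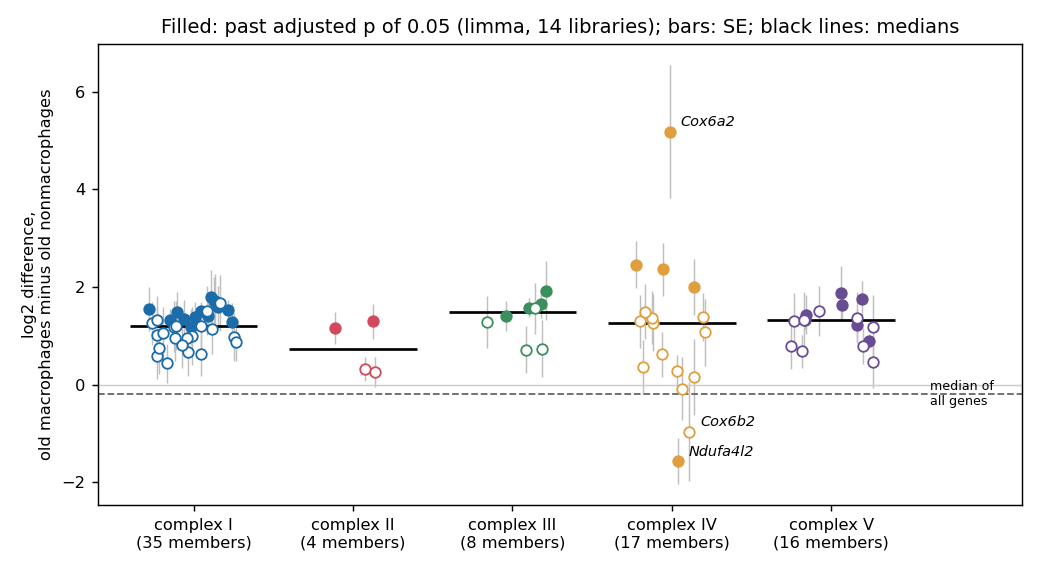
Log2 difference between old macrophages and old nonmacrophages for each member, by complex, with SE bars, medians as black lines and filled points for members past an adjusted p of 0.05. Complexes I, II, III and V lie wholly above 0, and complex IV holds both the highest point, Cox6a2, and the lowest, Ndufa4l2.

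The count depended on which libraries shared the estimate of spread. Fitted to the 8 old libraries alone, limma called 75 members higher and 2 lower, when 24.9% and 33.4% of all genes were called. Leaving out 1 old macrophage library gave 17, 25, 16 and 15 called members for replicates 1, 7, 12 and 17, and leaving out 1 old nonmacrophage library gave 16, 15, 16 and 19 for replicates 10, 11, 18 and 19, while 12.9% to 14.5% of all genes were called in either direction. Ndufa4l2, Uqcrq and Atp5g1 lost their call without any 1 of the 8 old libraries, Ndufa4 without 7 of them and Sdhb and Sdhd without 6. Young macrophage replicates 9 and 15 enter the old comparison only through the spread. Without either of them the other has no replicate and adds nothing to the spread. The fits without replicate 9 and without replicate 15 are therefore nearly the same by construction for the old comparison.

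Core and accessory subunits of complex I were both among those called higher. Ndufs1, a core iron-sulphur subunit of the electron input module (mm10, chromosome 1, 63143596 to 63176833), had 13279.5, 12985, 12856 and 11518 normalized reads in the 4 old macrophage libraries, against 4268, 4403, 4553 and 4325 in the 4 old nonmacrophage libraries (log2 difference 1.53, SE 0.20, limma adjusted p = 0.00022). The lowest old macrophage library was above the highest old nonmacrophage library for Ndufs1, and the spread within each group was small. Ndufv1, which binds NADH and the flavin that takes its electrons, rose by 1.41 (SE 0.25, limma adjusted p = 0.0016). Ndufa10, an accessory subunit of the membrane arm, rose by 1.33 (SE 0.21, limma adjusted p = 0.00082). Among the other complex I members called higher, 10 were Ndufa6, Ndufa8, Ndufa9, Ndufb2, Ndufb6, Ndufb8, Ndufc2, Ndufs3, Ndufs4 and Ndufv2, with log2 differences of 1.18 (Ndufs3) to 1.80 (Ndufb6). The 21 that were not called ran from 0.44 (Ndufv3) to 1.68 (Ndufa11), all of them positive. Exons of Ndufs1 overlap those of Eef1b2, and the strand used in counting is not given in the sources used here, so reads of such pairs cannot be told apart. Such overlap was found for 28 of the 80 members in all, among them the called genes Ndufa9, Ndufb2, Ndufb6 (with Smim27), Ndufb8, Ndufs3 (with Kbtbd4), Uqcrc2 (with Pdzd9), Cox5a (with Gm26631), Atp5a1 (with Haus1), Atp5f1 (with Wdr77) and Atp5o.

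Complex II, succinate dehydrogenase, was split. Sdhb, the iron-sulphur subunit (mm10, chromosome 4, 140961203 to 140979193), had 14363, 12162, 14444 and 15459 normalized reads in old macrophages, against 5970.3, 6026, 6098 and 7091 in old nonmacrophages (log2 difference 1.16, SE 0.33, limma adjusted p = 0.027). Sdhd, a membrane anchor, averaged 14452 ± 2615 in macrophages of old mice and 5790.2 ± 156 in the old nonmacrophages (SD, n = 4 each) and was called higher (log2 difference 1.30, SE 0.36, limma adjusted p = 0.022). The flavin subunit Sdha and the second anchor Sdhc did not pass. Sdha averaged 21376 ± 1433 in macrophages of old mice and 17116 ± 839 in the old nonmacrophages (SD, n = 4 each), a log2 difference of 0.32 (SE 0.25, limma adjusted p = 0.44). The log2 difference of Sdhc was 0.25 (SE 0.30, limma adjusted p = 0.66). For all 4 genes the old macrophage libraries nevertheless lay above every old nonmacrophage library. In the fit to the old libraries alone limma called all 4 higher, against 24.9% of all genes.

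In complex III the core proteins, the Rieske protein and a small subunit were called higher. Uqcrc1, a core protein of the complex (mm10, chromosome 9, 108936633 to 108949623), had 25774, 26078, 28851 and 26647 normalized reads in old macrophages, against 8602, 9152, 8898 and 9386 in old nonmacrophages (log2 difference 1.57, SE 0.19, limma adjusted p = 0.00011). It had the smallest p of all members. Uqcrc2, the other core protein, rose by 1.65 (SE 0.28, limma adjusted p = 0.0013), Uqcrfs1, the Rieske iron-sulphur protein, by 1.41 (SE 0.30, limma adjusted p = 0.006) and the small subunit Uqcrq by 1.93 (SE 0.60, limma adjusted p = 0.042). The small subunits Uqcr10, Uqcr11, Uqcrb and Uqcrh had log2 differences of 0.72 (Uqcrb) to 1.56 (Uqcrh) and did not pass. Fitted to the old libraries alone, limma called all 8 members of complex III higher, against 24.9% of all genes.

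In complex V subunits of the catalytic head, the rotor, the stalks and the membrane ring were among the 7 called. Atp5b, the catalytic beta subunit (mm10, chromosome 10, 128083273 to 128090391), had 100972, 89987, 104887 and 100226 normalized reads in old macrophages, against 37005, 39809.7, 39776 and 40943 in old nonmacrophages (log2 difference 1.33, SE 0.18, limma adjusted p = 0.00023). Atp5a1, the alpha subunit of the head, rose by 0.90 (SE 0.15, limma adjusted p = 0.001). The rotor gene Atp5c1 rose by 1.76, the stalk genes Atp5f1, Atp5h and Atp5o by 1.64, 1.22 and 1.43, and Atp5g1, which encodes the c subunit of the membrane ring, by 1.87. The difference of Atp5a1 was the smallest of the 7 and that of Atp5g1 the largest. Atp5g2 and Atp5g3 encode the same mature c subunit as Atp5g1, and their log2 differences of 0.47 and 1.37 did not pass (limma adjusted p = 0.64 and 0.087). All 16 members of complex V had old macrophage libraries wholly above the old nonmacrophage libraries. Near-identical pseudogenes exist for 20 of the 80 members, among them Atp5f1, Atp5c1, Atp5g1 and Atp5g2, and the separate values of these are uncertain.

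Complex IV was mixed. Cox5a, a matrix-side subunit (mm10, chromosome 9, 57521274 to 57532426), had 25144, 21522, 25935 and 26155 normalized reads in old macrophages, against 4085, 4664, 4153 and 5132 in old nonmacrophages (log2 difference 2.45, SE 0.48, limma adjusted p = 0.0034). Cox7b, a small membrane subunit with near-identical pseudogenes, had 21406, 12337, 20519.5 and 29602 in old macrophages, against 3602, 3799, 3737 and 4438 in old nonmacrophages (log2 difference 2.37, SE 0.54, limma adjusted p = 0.0086). Ndufa4 had 33910.5, 19381, 30924 and 45162 in old macrophages, against 7503, 7276, 7646 and 8485 in old nonmacrophages (log2 difference 2.00, SE 0.57, limma adjusted p = 0.026). In each of the 3 the groups did not overlap, with old macrophage replicate 7 the lowest of its group and replicate 17 the highest. Cox5b, Cox6a1, Cox6b1, Cox6c, Cox7a2, Cox7c and Cox8a had log2 differences of 0.37 (Cox8a) to 1.49 (Cox7c) and did not pass.

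The isoform genes of complex IV moved in different directions. Cox6a2, the heart and skeletal muscle form of Cox6a (mm10, chromosome 7, 128205435 to 128206387), had 96.9, 171, 146 and 56.1 normalized reads in old macrophages, against 2.46, 0, 4.45 and 3.29 in old nonmacrophages (log2 difference 5.18, SE 1.36, limma adjusted p = 0.018). Every old macrophage library was above every old nonmacrophage library, and the level was low in both. Its adjusted p was 0.050 without old macrophage replicate 7, 0.060 without old nonmacrophage replicate 11 and 0.086 with a pseudocount of 0.1. Among the young libraries Cox6a2 had 0 and 143 normalized reads in macrophage replicates 9 and 15, against 14.2, 6.81, 0 and 0 in the nonmacrophage libraries. It had 59.5 in the auditory nerve macrophage library, against 4.2 in the auditory nerve nonmacrophage library, and 446 in the lateral wall macrophage library, against 44.3 in the lateral wall nonmacrophage library. These single libraries have no replicate check. Exons of Cox6a2 overlap Itgad, an integrin gene of macrophages. Itgad had 538 normalized reads in the lateral wall macrophage library and 0 in the auditory nerve macrophage library. In the 4 old macrophage libraries it had 0, 0, 0.461 and 0. Markers of striated muscle, where Cox6a2 is best known, summed over 7 genes to 93.6 to 121 normalized reads in old macrophages, against 128 to 276 in old nonmacrophages, and 1 to 4 of the 7 genes were at 0 in each old macrophage library. Whether reads of neighbouring integrin genes or of muscle cells add to the Cox6a2 values was not tested.

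Ndufa4l2, a relative of Ndufa4 known as a target of hypoxia signalling (mm10, chromosome 10, 127514967 to 127517154), was the 1 member called lower. It had 172, 177, 159 and 106 normalized reads in old macrophages, against 763, 359, 373 and 389 in old nonmacrophages (log2 difference -1.56, SE 0.48, limma adjusted p = 0.038). All 4 old macrophage libraries were below all 4 old nonmacrophage libraries, although nonmacrophage replicate 10 stood well above the other 3. Leaving out any 1 old library ended this call, with adjusted p of 0.063 to 0.13 and log2 differences of -1.67 to -1.30. Exons of Ndufa4l2 overlap Shmt2, whose log2 difference in the same comparison was 0.35 (SE 0.27, limma adjusted p = 0.44). Whether reads of Shmt2 add to those of Ndufa4l2 was not tested. Cox6b2, the testis form of Cox6b, averaged 180.3 ± 35.7 normalized reads in macrophages of old mice and 349 ± 35.0 in the old nonmacrophages (SD, n = 4 each), with groups that did not overlap but a difference that did not pass (log2 difference -0.96, SE 1.01, limma adjusted p = 0.6). Fitted to the old libraries alone, limma called both Cox6b2 and Ndufa4l2 lower.

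Per kilobase of transcript, the ubiquitous form made up most of each isoform family. Cox6b1 took 98.8% ± 0.098 of the Cox6b family in old macrophages and 94.3% ± 0.43 in the old nonmacrophages (SD, n = 4 each), and Cox6b2 took the rest. Ndufa4 took 99.6% ± 0.18 of its pair in old macrophages and 96.2% ± 1.6 in old nonmacrophages. Cox7a2 took 83.1% ± 2 of the Cox7a family in old macrophages and 73.4% ± 1.5 in old nonmacrophages, and Cox7a2l, whose protein joins complexes III and IV in supercomplexes, took 10.8% ± 2.3 in old macrophages and 20.1% ± 2 in old nonmacrophages. Cox7a1, the muscle form, took 6.04% ± 1.1 in old macrophages and 6.51% ± 0.84 in old nonmacrophages, a difference within the spread between replicates. Cox8b, another muscle form, took 18.9% ± 6.2 of the Cox8 pair in old macrophages and 21.1% ± 5.5 in old nonmacrophages, also within the spread. These shares are descriptions and were not tested.

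Cox8b set the auditory nerve apart from the other samples. It had 4.96 normalized reads in the auditory nerve macrophage library and 33.6 in the auditory nerve nonmacrophage library, against 986 and 2135 in the lateral wall macrophage and nonmacrophage libraries and 1544 in the unsorted cochlea. Cox8a, the ubiquitous form, had 5097 and 4939.7 in the auditory nerve macrophage and nonmacrophage libraries, and 5665 and 8847 in the lateral wall ones. In the share of the Cox8 pair per kilobase, Cox8b stood at 0.148% in the nerve macrophage library and 1.03% in the nerve nonmacrophage library, and at 21% and 26.9% in the lateral wall macrophage and nonmacrophage libraries. Each of these is 1 library. Cox7b2, a testis form, had at most 8.26 normalized reads in any library, and no fold change is given for it.

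**Figure D3:**
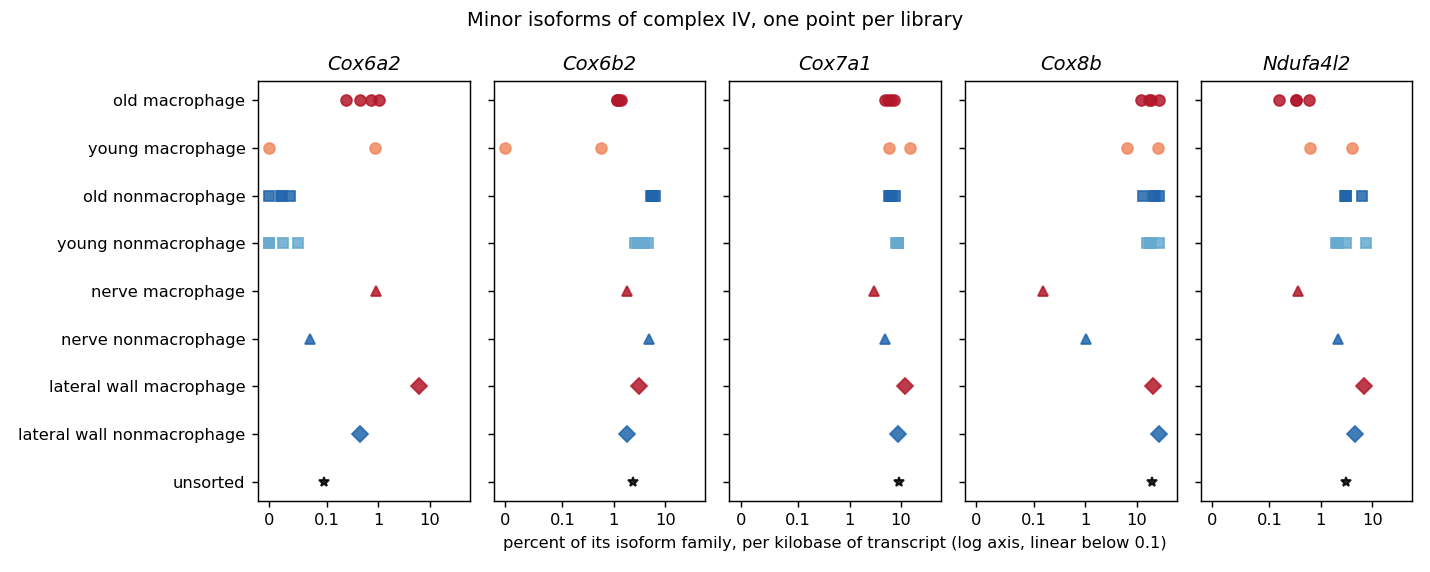
Share of 5 minor isoforms in their family, as percent per kilobase of transcript, 1 point per library on a log axis that is linear below 0.1. Cox6a2 is above 0.2% in all 4 old macrophage libraries and below 0.04% in all 4 old nonmacrophage libraries, Cox6b2 and Ndufa4l2 are lower in old macrophages than in old nonmacrophages, and Cox8b is low in both auditory nerve libraries.

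Other genes of the mitochondria and of energy metabolism were taken from lists of textbook members. Their counts in the old comparison stand beside 9.25% of all genes called higher and 9.36% called lower, and some of them are near these shares. In the old comparison 5 of 12 other nuclear respiratory chain genes were called higher and none lower, among them Cycs, which encodes cytochrome c (log2 difference 1.72, SE 0.33, limma adjusted p = 0.0028), and Cyc1, the cytochrome of complex III (1.41, SE 0.29, limma adjusted p = 0.0039). Assembly factors were called higher in 9 of 16 genes for complex I, 1 of 4 for complex II, 1 of 6 for complex III, 4 of 23 for complex IV and 2 of 4 for complex V, and none was called lower. Among them were Ndufaf5 (log2 difference 2.81), Sco2, a copper chaperone of complex IV (2.54), and Atpaf1 (2.14). Of 78 mitochondrial ribosomal protein genes 16 were called higher and none lower, with a median of 0.72. Of 17 citric acid cycle genes 10 were called higher, led by Idh3a (1.92, SE 0.20), and 1 lower, Idh2 (-0.66, SE 0.18). Of 20 glycolysis genes 13 were called higher and 1 lower, the glucose transporter gene Slc2a1 (-1.44, SE 0.31), with Eno2, the neuronal enolase, at 3.90 (SE 0.29). Of 9 uncoupling and exchange carriers 5 were called higher, among them the ADP and ATP carrier gene Slc25a4 (1.39), and of 20 antioxidant genes 5, among them Prdx3 and Prdx5 (1.29 and 1.48). The median log2 difference was 1.33 over the other respiratory chain genes, 0.97 over the citric acid cycle, 1.05 over glycolysis, 0.87 over the carriers and 0.43 over the antioxidant genes. Of 20 regulators of mitochondrial biogenesis 1 was called higher, Esrrg (3.73), and none lower, with a median of 0.12. In the fit to old libraries alone 5 of these regulators were called higher and 6 lower, against 24.9% and 33.4% of all genes.

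Markers of spiral ganglion neurons moved with the same sort, in which 9.25% of all genes were called higher and 9.36% lower. Of 8 such genes 7 were called higher in old macrophages, and their summed level was 267844 to 329988 normalized reads in old macrophages, against 9655 to 16022 in old nonmacrophages, with none at 0. In the young cochlea it was 152722 to 266647 in macrophages and 6199 to 32758 in nonmacrophages. In the auditory nerve it was 35954 in the macrophage and 29161 in the nonmacrophage library, and in the lateral wall 49.0 in the macrophage library, with 3 of 8 genes at 0, and 1375 in the nonmacrophage library, with 1 at 0. Of 7 Schwann cell and glia markers 6 were called lower in old macrophages, as were 5 of 6 fibroblast and matrix markers and all 4 neutrophil markers. Their part in the difference of the members was not tested. In the auditory nerve, 39 of the 79 members with at least 20 normalized reads were higher in the macrophage library and 40 lower. Their median log2 difference was -0.01, against -0.16 over all genes with at least 20 normalized reads. There 1 member, Cox6a2, was at least 2-fold higher and 3, Ndufs5, Cox8b and Ndufa4l2, at least 2-fold lower, against 22.1% and 33.1% of all genes. In the lateral wall 25 members were higher in the macrophage library and 54 lower, with a median log2 difference of -0.12, against -0.08 over all such genes. There 1 member, Cox6a2, was at least 2-fold higher and 1, Cox8b, at least 2-fold lower, against 18.4% and 27.1% of all genes. Both comparisons set 1 library against 1 and have no test.

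Member levels were also read against the excess of short transcripts, whose part in them was not tested. Young macrophage replicate 9 was the highest of the 14 sorted whole-cochlea libraries for 60 of the 80 members, and young nonmacrophage replicate 2 for 13. No such count is given for all genes. In the old comparison 13 of 15 members with transcripts of at least 1500 bases were called higher, with a median log2 difference of 1.50 and a median SE of 0.25. Of the 52 members shorter than 1000 bases 11 were called higher, with a median of 1.19 and a median SE of 0.52. Over genes of all lengths 9.25% were called higher, and shares of all genes by length class are not given. After removal of each library's trend with transcript length, limma called 41 members higher and 1 lower in the old comparison, with a median of 1.31, against 8.54% and 7.01% of all genes.

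**Figure D4:**
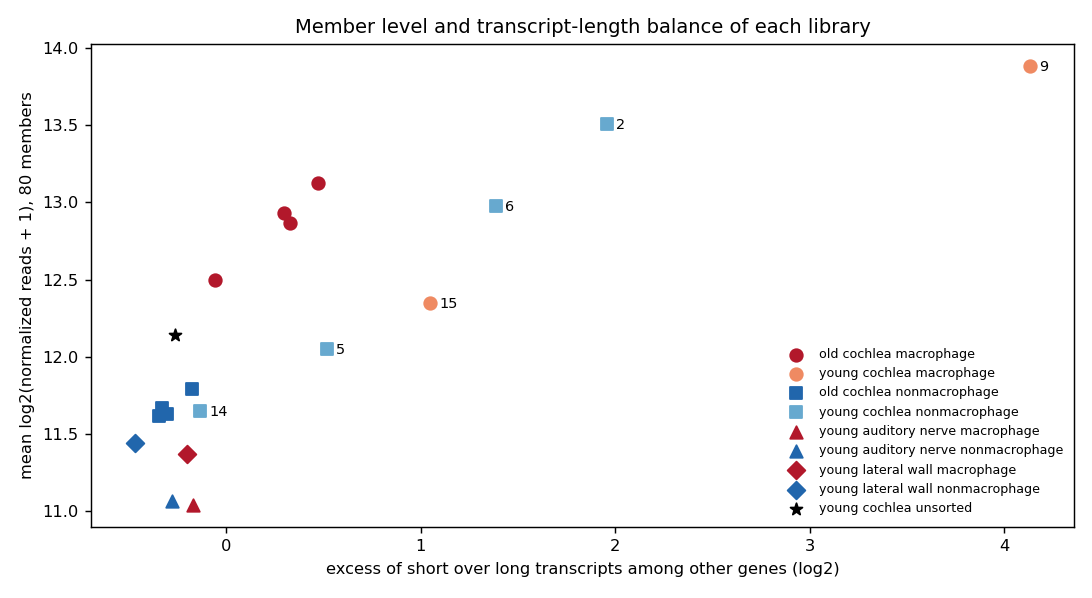
Mean level of the 80 members (log2 of normalized reads + 1) against the excess of short over long transcripts among other genes (log2), 1 point per library, with replicate numbers beside the young sorted whole-cochlea libraries. Young macrophage replicate 9 is the farthest right and the highest, and the old macrophage libraries lie above the old nonmacrophage libraries and slightly to their right.

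The same sort difference in the young cochlea gave fewer calls. Limma called 8 of 80 members higher and 1 lower in young macrophages than in young nonmacrophages, while 9.18% of all genes were called higher and 22.3% lower. The share called higher was thus close among members and all genes. The 8 included Ndufs1, Ndufv1 and Ndufa10 of complex I, Uqcrc1 and Uqcrfs1 of complex III, and Atp5b and Atp5a1 of complex V. None of them has a transcript under 1000 bases. All 8 were also called higher in the old comparison, which came from the same fit with the same estimate of spread. Uqcrc1 had 51526 and 30889 normalized reads in the 2 young macrophage libraries, against 10574, 15609, 11648 and 9212 in the 4 young nonmacrophage libraries (log2 difference 1.79, SE 0.23, limma adjusted p = 6.9e-05). Ndufs1 had 10667 and 9469.6 in young macrophages, against 2366, 5086, 3219 and 3844 in young nonmacrophages (log2 difference 1.52, SE 0.25, limma adjusted p = 0.00044), and Atp5b had 122245 and 96429 in young macrophages, against 49957, 66874, 62219 and 37206 in young nonmacrophages (log2 difference 1.04, SE 0.22, limma adjusted p = 0.0029). For these 3 genes both young macrophage libraries lay above all 4 young nonmacrophage libraries.

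Cox6b2 was the 1 member called lower, with 0 and 70.0 normalized reads in young macrophages, against 1045, 233, 878 and 289 in young nonmacrophages (log2 difference -5.89, SE 1.24, limma adjusted p = 0.003). With 0 reads in replicate 9 its fitted difference depends on the added pseudocount of 1. The median log2 difference of the members was 0.66, against -0.61 for all genes. It was -0.30 without young macrophage replicate 9, with 5 members called higher and 2 lower, against 9.58% and 17.7% of all genes. Without replicate 15 it was 1.56, with 40 called higher and 1 lower, against 13.3% and 30% of all genes. Leaving out young nonmacrophage replicate 2 gave 16 higher and 1 lower, against 10.1% and 22.1%. Fitted to the 6 young libraries alone, limma called 1 member higher and none lower, against 2.07% and 6.6% of all genes. Pooling the auditory nerve and lateral wall libraries with the young groups gave 2 higher and 1 lower, against 7.35% and 17.4%, and a median of 0.07. Over both ages together 38 members were called higher and 1 lower, against 13.6% and 25.7% of all genes. Without young macrophage replicate 9 that count was 17 higher and 2 lower, against 14.4% and 24% of all genes, and without replicate 15 it was 65 higher and 1 lower, against 16.8% and 34.3%.

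Cells of old and young mice were compared next. In macrophages limma called 1 member higher in old mice, Cox6b2, and 1 lower, Ndufa4l2, while 24.1% of all genes were called higher and 5.57% lower. Ndufa4l2 had 172, 177, 159 and 106 normalized reads in old macrophages, against 836 and 968 in young macrophages (log2 difference -2.57, SE 0.59, limma adjusted p = 0.0061). Cox6b2 had 169, 143, 181 and 228 in old macrophages, against 0 and 70.0 in young macrophages (log2 difference 4.41, SE 1.24, limma adjusted p = 0.018). In both genes the groups did not overlap. The call of Cox6b2 ended after quantile normalization (log2 difference 2.11, limma adjusted p = 0.13) and in edgeR (2.48, adjusted p = 0.14), and library weights ended both calls. Without young macrophage replicate 9, which had no reads of Cox6b2, its log2 difference was 1.33, and that of Ndufa4l2 was -2.68. Of the single macrophage libraries, both young, the auditory nerve one had 24.8 normalized reads of Ndufa4l2 and the lateral wall one 479.

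The old macrophage libraries of 36 of the 80 members lay between young macrophage replicate 9 above and replicate 15 below. No share of all genes is given for this order, so it is not shown to be particular to the members. In 2 members every old library lay above both young ones and in 9 every old library lay below both, against 31.7% and 13.4% of all genes. Uqcrq had 14792, 9449, 13994 and 21106 normalized reads in old macrophages, against 50373 and 7048 in young macrophages. Cox5a had 25144, 21522, 25935 and 26155 in old macrophages, against 43529 and 11691 in young macrophages. Both genes are among the 36, with the old libraries between the 2 young ones. The median SD of a member within its group was 0.32 on the log2 scale in old macrophages, 1.38 in young macrophages, 0.11 in old nonmacrophages and 1.00 in young nonmacrophages. The median log2 difference of the members with age was -0.33, against 0.88 for all genes, and its sign was not stable. It was 0.09 after quantile normalization, which put the median of all genes at -0.07, and 0.03 after scaling to a common total, which put it at 1.15. Without young macrophage replicate 9 it was 0.44, with 2 members called higher and 1 lower, against 18.7% and 5.94% of all genes. Without replicate 15 it was -1.27, with 2 called higher and 21 lower, against 35.2% and 10.9%. After removal of the trend with transcript length 1 member was called higher and 26 lower, against 10.3% and 33.2% of all genes. With young macrophage replicate 9 and young nonmacrophage replicates 2 and 6 left out 25 were called higher and 1 lower, against 30.1% and 14.8%.

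Markers of other cell types differed with age in the same macrophage libraries, where 24.1% of all genes were called higher and 5.57% lower. Supporting cell markers were called higher in 4 of 5 genes (median log2 difference 5.90), with a summed level of 15239 to 24832 normalized reads in old macrophages, against 7205 to 17890 in young macrophages, where 2 and 3 of the 5 were at 0. Hair cell markers were called higher in 3 of 5 genes (median 5.06) and summed to 1229 to 1710 in old macrophages, against 0 to 1171 in young macrophages. Ciliated cell markers were called higher in 3 of 4 genes and summed to at most 269 in old macrophages, with at most 1 of the 4 at 0, against 0 in both young macrophage libraries. Of 7 Schwann cell and glia markers 5 were called higher, with sums of 124359 to 375789 in old macrophages, against 70664 to 82739 in young macrophages. T and NK cell markers were called lower in 4 of 5 genes (median -6.68) and summed to 37.0 to 135 in old macrophages, against 2072 to 9916 in young macrophages. Their part in the values of the members was not tested.

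**Figure D5:**
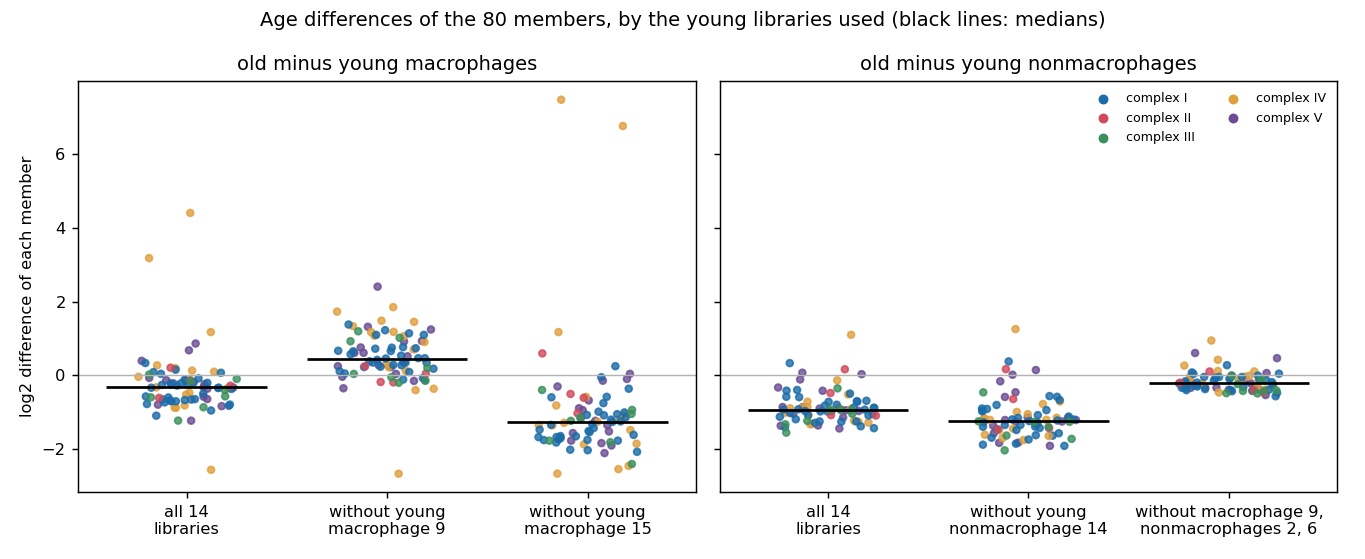
Log2 difference between old and young cells for each member, in macrophages (left) and nonmacrophages (right), with all 14 libraries and with young libraries left out, coloured by complex, with medians as black lines. The median in macrophages is -0.33 with all libraries, 0.44 without replicate 9 and -1.27 without replicate 15, and the median in nonmacrophages moves between -1.25 and -0.22.

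In nonmacrophages limma called none of the 80 members with age, while 1.64% of all genes were called higher and 0.0813% lower in old mice. At an unadjusted p under 0.05, 34 members were lower in old mice and none higher, against 7.87% and 15.2% of all genes. On recovered reads edgeR also called none of the 79 members it tested, while 0.0175% of all genes were called higher and 0% lower. At an unadjusted p under 0.05 it had 66 members, against 19.3% of all genes in either direction. DESeq2 called 23 lower and none higher, against 6.77% lower and 3.1% higher of all genes. The median log2 difference was -0.94 over the members and 0.39 over all genes, and 75 of 80 members had a negative difference. Hair cell markers were called higher in old nonmacrophages in 4 of 5 genes (median 6.30), with sums of 1467 to 5046 normalized reads in old nonmacrophages, against 153 to 726 in young nonmacrophages, where 1 to 4 of the 5 were at 0. Ciliated cell markers were called higher in 2 of 4 genes (median 3.98) and summed to 262 to 881 in old nonmacrophages, against 24.9 to 157 in young nonmacrophages. Their part in the values of the members was not tested. The median was -0.94 in complex I, -0.78 in complex II and -0.92 in both complex IV and complex V, and complex III had the lowest. Atp5f1 had 6758, 7070, 6844 and 7214 normalized reads in old nonmacrophages, against 22886, 14081, 18120.5 and 7281 in young nonmacrophages (log2 difference -1.04, SE 0.33, limma adjusted p = 0.11). Sdhb had 5970.3, 6026, 6098 and 7091 in old nonmacrophages, against 24109, 11803, 17354 and 6366 in young nonmacrophages (log2 difference -1.08, SE 0.33, limma adjusted p = 0.1). In both genes young replicate 14 stood near the old libraries and the other 3 young libraries above them. Without young nonmacrophage replicate 14 limma called 32 members lower and none higher, with a median of -1.25, against 7.11% lower and 12.3% higher of all genes. With young macrophage replicate 9 and young nonmacrophage replicates 2 and 6 left out the median was -0.22 and limma called no member, against 1.32% of all genes called higher and 0.0652% lower. At an unadjusted p under 0.05 there were then 2 members, against 21.2% of all genes in either direction.

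The difference between the age effects of macrophages and nonmacrophages was tested as an interaction. Limma called none of the 80 members, while 6.98% of all genes were called higher and 0.954% lower. At an unadjusted p under 0.05 there was 1 member, Cox6b2, against 22.1% of all genes in either direction. On recovered reads edgeR called none, against 8.96% of all genes higher and 0.695% lower, with 3 members at an unadjusted p under 0.05, against 23.4% of all genes. DESeq2 called 1 member higher and none lower, against 14.4% and 3.2%. Without young macrophage replicate 9 limma called 3 members higher and none lower, against 10.6% and 2.99% of all genes. Without replicate 15 it called 2 higher and none lower, against 24.5% and 4.64%, and without young nonmacrophage replicate 14 it called 1 higher and none lower, against 7.13% and 1.98%. With the 3 young libraries that held the largest excess of short transcripts left out it called 18 higher and 1 lower, against 20.9% and 9.51%.

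Members of all complexes followed each other across libraries. The median Spearman correlation of a member with the mean of the other members was 0.95 over the 19 libraries, with 61 members above 0.8 and 7 below 0.5. These libraries share groups, depth and transcript-length balance, so the value is a description. The 7 members below 0.5 were the low-level genes Cox7b2 and Cox6a2, Sdha (-0.50), Cox6b2 (0.16), Ndufs1 (0.24), Ndufa4l2 (0.29) and Uqcrc1 (0.46). Ndufs1 and Sdha were lowest, among the sorted whole-cochlea libraries, in young nonmacrophage replicate 2, with 2366 and 9944 normalized reads, where Cox8a had 83343. Outside the members, the genes with the closest pattern among 8031 ranked were 1110008P14Rik (Spearman correlation 0.989), BC002163 (0.989), Cox4i1 (0.988), 2010107E04Rik (0.984) and Cisd3 (0.984), all with transcripts under 1000 bases.

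Promoters of the members were searched for motifs of factors linked to mitochondrial genes. These windows, from 250 bases before to 50 bases after the start in RefSeq (GRCm38.p6), were found for 68 of the 80 members and 14363 of the tested genes, and both strands were searched. The core motif of nuclear respiratory factor NRF1, GCGCATGC, was in 14.7% of the members' promoters against 4.78% of all promoters, and AAGATGGC, bound by YY1, in 14.7% of the members against 4.23% of all. TCAAGGTCA, bound by oestrogen-related receptors, was in 2.94% (2 members) against 0.369%. CCGGAAGT, bound by GABP, was in 7.35% of the members against 7.03% of all, the SP1 motif GGGGCGGG in 27.9% against 30.1% and CCAAT in 44.1% against 42.3%. CCAAT is bound by NF-Y. None of these motifs contains another. A match is a description of these letters and not a bound site. Pieces before the start of 4 members are printed 5′ to 3′ on the gene's strand to show what the motifs look like in genes of complexes I, III and V. Matches of SP1 and CCAAT, the most frequent motifs, are left in lower case. The capitals mark the NRF1 motif in Ndufa11 and Ndufa6, the GABP motif in Uqcrh and the motif of oestrogen-related receptors in Atp5g3. In Ndufa6, Uqcrh and Atp5g3 the motif reads on the opposite strand, so the capitals show its reverse complement, and in Ndufa11 overlapping matches on both strands are in capitals.
Ndufa11, chr17:56717612-56717761, plus strand: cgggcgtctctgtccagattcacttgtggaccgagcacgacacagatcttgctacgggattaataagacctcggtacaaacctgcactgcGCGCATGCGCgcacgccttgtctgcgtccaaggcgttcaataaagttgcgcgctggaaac
Ndufa6, chr15:82354323-82354472, minus strand: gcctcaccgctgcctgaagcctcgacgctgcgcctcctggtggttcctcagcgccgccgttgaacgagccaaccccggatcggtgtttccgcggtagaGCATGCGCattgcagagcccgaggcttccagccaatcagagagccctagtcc
Uqcrh, chr4:116075072-116075221, minus strand: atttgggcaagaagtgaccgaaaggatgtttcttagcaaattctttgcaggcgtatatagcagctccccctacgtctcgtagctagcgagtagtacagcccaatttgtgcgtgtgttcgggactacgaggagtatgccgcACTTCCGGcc
Atp5g3, chr2:73911327-73911476, minus strand: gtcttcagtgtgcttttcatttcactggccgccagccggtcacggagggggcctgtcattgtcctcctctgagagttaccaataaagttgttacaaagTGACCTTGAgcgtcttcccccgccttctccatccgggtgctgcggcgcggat
In the old comparison Ndufa6 was called higher, with a log2 difference of 1.72, and Ndufa11, Uqcrh and Atp5g3 had differences of 1.68, 1.56 and 1.37 that did not pass (limma adjusted p = 0.059, 0.056 and 0.087).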

How the data were processed

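Per the labels' protocols, RNA of cells sorted by GFP was made into libraries with SMARTer Ultra and Nextera XT, without isolates of poor RNA. Tools named in the submitters' processing notes are TopHat2, Partek and DESeq2, with mm10 as the build and no versions. Each signal value in the deposited table is, per the file headers, a normalized read count of 1 gene in 1 library. The steps between low values gave back the whole reads, and at least 99.6% of values per library were whole within 0.1 read (100% of those under 10000 reads).

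Limma 3.58.1 (R 4.3.3, mean-variance trend, robust variance) was run on log2(value + 1) in 14 libraries, those sorted from whole cochleae, as 4 group means. The 18441 genes tested had a minimum value of 1 in 2 or more libraries and include all 80 members. P-values were adjusted over all genes by Benjamini-Hochberg at 0.05. Fold changes are given on that log2(value + 1) scale and understate the change of low genes. The step was tested on simulated data that gave every library a common spread, taken from the old libraries. That test does not cover the larger spread of the young libraries. It was run only for the old comparison and for age in nonmacrophages. Alternatives were edgeR 4.0.16 and DESeq2 1.42.0 on the recovered reads, other scalings, filters and pseudocounts, library weights, subsets of groups and leaving out each library. A correction for transcript length and the joint removal of 3 young libraries were added after seeing the data. The design had planned for counts or normalized values, and the values are normalized.

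The members and lists were chosen with earlier results of these data known. Named genes were the 3 called members with the smallest adjusted p per complex and direction, the 5 called members with the largest difference, the isoform families and the 3 leading called genes of each related list, with others added for range or contrast after their values were seen. Transcript lengths, positions and overlaps came from GENCODE M21, and near-identical copies (at least 95% over 200 bases) from BLAST 2.17.0. No pair of replicates agreed within sampling noise. A gene with no reads could have up to 3 reads per library, 1.38 to 5.33 normalized reads, which covers counting error only. The values of 1 member are not reported singly here; it stays in the fits and counts.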

Additional observations from a re-analysis of the deposited data

Results flagged for a closer look

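By Dixon's criterion 6 values stood apart within their group, among 102 groups of 4 libraries tested, and chance gives about 1 in 20. The tested groups include those of the 29 named genes and are not limited to them. In old nonmacrophages, Ndufa4l2 had 763 normalized reads in replicate 10, against 359 to 389 in the other 3 (gap over range 0.926), and Atp5g2 had 1346 in the same library, against 1565 to 1566 (0.993). In old nonmacrophage replicate 19, Sdhb had 7091 normalized reads, against 5970.3 to 6098 in the other 3 (0.886), and Cox6a1 had 13081, against 10187 to 10620.4 (0.850). Cox7b2 had 8.26 normalized reads in old nonmacrophage replicate 11, against 0 to 1.23 in the others (0.851), and 0.535 in young nonmacrophage replicate 14, against 0 in the others (1). Both Cox7b2 values rest on few reads.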

How the results depend on the processing

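Both the counts of called members and, in the comparisons with young macrophages, the direction of many members changed with the libraries used. In the young sort 73 of 80 members had a positive difference, and 24 without young macrophage replicate 9. With age in macrophages it was 17, against 66 without replicate 9 and 6 without replicate 15. For named members 54 differences were retested, 44 of them called and so chosen for their size or p. The others are all between old macrophages and old nonmacrophages, so the sign changes of uncalled members with age, counted above, are not covered. Among the 54, 1 changed sign, that of Cox8b between old macrophages and old nonmacrophages (0.15). It was -0.12 without old macrophage replicate 1 and -0.14 without old nonmacrophage replicate 11. Its range over leaving out 1 library was -0.14 to 0.29, and it passed in no setting. Called members, higher and lower together, are given next with the share of all genes called in the same fit. Between old macrophages and old nonmacrophages 76 were called with library weights (60.6% of all genes), 77 in the fit to these groups alone (58.3%), 13 with auditory nerve and lateral wall libraries pooled with the young groups (10.1%) and 74 with 3 young libraries left out (49.5%). Between young macrophages and young nonmacrophages the counts were 5 after quantile normalization (28%), 0 with library weights (3.12%), 1 in the fit to these groups alone (8.68%), 3 with pooling (24.7%), 40 with the length trend removed (40.7%) and 20 with the 3 libraries left out (45.7%). Over both ages they were 11 with weights (14.2%), 16 with pooling (29.2%), 71 with the length trend removed (41.6%) and 67 with the 3 libraries left out (56.5%). Between old and young macrophages they were 1 after quantile normalization (24.8%), in edgeR (22.5%) and in the fit to these groups alone (24.9%), 4 in DESeq2 (34%), 0 with weights (1.96%) or pooling (18.5%), 27 with the length trend removed (43.5%) and 26 with the 3 libraries left out (44.9%). Between old and young nonmacrophages DESeq2 called 23 (9.87%), and for the interaction DESeq2 (17.6%) and the length correction (18.5%) called 1 each and the fit without the 3 libraries 19 (30.4%). Leaving out 1 library at a time gave 15 to 49 calls in the old sort (12.9% to 29.7% of all genes), 7 to 41 in the young sort (27.3% to 43.3%), 19 to 66 over both ages (34.2% to 51%), 2 to 23 with age in macrophages (22.9% to 46.1%), 0 to 32 with age in nonmacrophages (0.906% to 19.4%) and 0 to 3 for the interaction (6.07% to 29.1%). The cause of these changes was not tested. The length correction and the joint removal of 3 libraries were chosen after seeing the data. Each library has its own number, which does not show whether macrophage and nonmacrophage libraries came from the same mouse. No paired analysis was therefore run, and the libraries were treated as independent.

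Taking the median in place of the mean of the members' log2 levels moved 7 group levels by more than the replicate SD. The 25 levels of single libraries have no SD and are given with them. For complex I the median was 11.29 in the auditory nerve macrophage library, as was the mean, 11.21 in the nerve nonmacrophage library, 11.29 and 11.54 in the lateral wall macrophage and nonmacrophage libraries and 12.22 in the unsorted one. For complex II it gave 12.61 in old nonmacrophages, 12.95 and 12.79 in the nerve macrophage and nonmacrophage libraries, 13.20 and 13.07 in the lateral wall ones and 13.07 in the unsorted one. For complex III it gave 12.07 in old nonmacrophages, 11.61 and 11.57 in the nerve macrophage and nonmacrophage libraries, 11.87 and 12.22 in the lateral wall ones and 12.66 in the unsorted one. For complex IV, which holds the isoforms of low level, it gave 13.17 in old and 13.50 in young macrophages, 11.81 in old and 12.68 in young nonmacrophages, 11.27 and 10.96 in the nerve macrophage and nonmacrophage libraries, 11.17 and 11.20 in the lateral wall ones and 12.36 in the unsorted one. For complex V it gave 12.13 in old nonmacrophages, 11.53 and 11.54 in the nerve macrophage and nonmacrophage libraries, 11.60 and 11.73 in the lateral wall ones and 12.69 in the unsorted one.

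The young macrophage group has 2 libraries, so its mean has little precision, and for 36 of 80 members they stood on either side of the old ones. Depth limits Cox7b2, Cox6a2 and Cox6b2, which had 0 reads in some libraries. Pseudogenes limit the members named with them, and exon overlap with an unknown strand limits 28 of 80.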
